A study of Gallus gallus with 10 samples.

Results

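Axon and cell guidance genes encode ephrins, semaphorins, Slits, netrins, the chemokine CXCL12, and the receptors of these ligands. They were read here in cranial neural folds of chick embryos, the dorsal head tissue from which neural crest cells leave. Members were matched by a rule on gene symbols, proposed with earlier results of these data known, and 58 of the 19168 genes in the deposited table matched. Of these, 53 matched through the Ensembl symbol and 5 through the protein database symbol (EPHA10, PLXNA1, SEMA4B, PLXNC1 and ROBO4). They comprised 29 ligands and 29 receptors.

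Ephrins are membrane-bound ligands, and their Eph receptors are tyrosine kinases, so signals pass between touching cells in both directions. Semaphorins signal through plexins, with neuropilins as binding partners for the secreted class, while Slits act through ROBO receptors and netrins through DCC and UNC5 receptors. In the embryonic head these systems are known for keeping neural crest streams apart and for setting boundaries in the neural tube, and CXCL12 attracts migrating crest cells that carry CXCR4.

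The study asked which genes depend on NSD3, a SET domain histone methyltransferase. Chick embryos, whose strain the labels do not give, at Hamburger-Hamilton stage 4 to 5 were bilaterally electroporated. One group received a control morpholino (mmMO) and the other an NSD3 morpholino, both at 0.5 mM and both together with 300 ng/µL of the carrier plasmid pCS2+myc. Neural folds were collected at 5 to 7 somites, and each of the 5 libraries per group was made from a separate pool of folds from 12 embryos, out of 60 embryos per condition. The labels do not say which step of NSD3 expression the morpholino blocks or what share of the fold cells took it up.

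Levels are in FPKM, fragments per kilobase as scaled by the authors, with the scaling between libraries not given in the sources used here, so genes of different length can be set side by side. The libraries' relative depth, read from the steps between low FPKM values, lay between 0.887 and 1.294, and 16238 to 16638 genes were above 0 in each. NSD3 itself lay between 20.8 and 25.9 FPKM in control pools and between 15.9 and 19.5 FPKM in NSD3 morpholino pools, without overlap (exact permutation p 0.007937, two-sided, the smallest that 5 against 5 pools can give). Its log2 fold change by limma was -0.34 (SE 0.0838, adjusted p 0.0550), while the authors' deposited table of called genes gives -0.35 with an adjusted p of 0.00439. Its control values were highest in pools 4 and 5 (24.7 and 25.9 FPKM). Markers of neural crest summed to 743 to 1366 FPKM over 7 genes in control pools and to 476 to 779 FPKM in NSD3 morpholino pools, so genes that define the labelled tissue were present. In control pools the sums were 702 to 1036 FPKM for 7 neural tube genes, 255 to 326 FPKM for 8 non-neural ectoderm genes, 34.3 to 48.4 FPKM for 5 endoderm genes, 17.3 to 24.1 FPKM for 8 head mesenchyme genes, 14.1 to 21.1 FPKM for 9 endothelium and blood genes and 4.78 to 10.2 FPKM for 5 notochord and floor plate genes. The head mesenchyme sum was 25.7 to 39.0 FPKM in NSD3 morpholino pools, without overlap, with 1 of 4 tested markers called higher (FOXC2). The neural tube sum there was 619 to 741 FPKM, overlapping the controls, with 1 of 7 tested markers called lower (NCAM1). No marker was at 0 in every pool, but the endoderm gene TTR was at 0 in every control pool. The floor plate gene SHH stayed at or below 0.111 FPKM and the endothelial gene CDH5 at or below 0.325 FPKM. SOX17, another endoderm gene, stayed at or below 0.257 FPKM. APOA1 alone averaged 38.1 FPKM of a mean endoderm sum of 40.5 FPKM in controls.

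The first question was which of the matched guidance genes the neural folds expressed. Among these members, Eph and ephrin genes stood at the top. EPHB3, an ephrin-B receptor, had the highest mean in control pools at 115.9 ± 24.5 FPKM (SD, n = 5), followed by its ligand class member EFNB1 at 89.2 ± 21.8 FPKM and by EPHA4, a receptor that binds both ephrin classes, at 78.5 ± 4.87 FPKM. NRP2, the semaphorin co-receptor, averaged 69.7 ± 13.2 FPKM and the ligand EFNB2 57.8 ± 12.3 FPKM. These 5 genes were the members above 50 FPKM, and 18 members were above 20 FPKM. The symbol rule does not cover every guidance gene. In the list of partner genes described below, DRAXIN averaged 348 FPKM in controls, FLRT3 87.5 FPKM and RGMA 82.6 FPKM. At the other end, 10 members had a mean below 1 FPKM over the 10 pools and were not tested: PLXNA4, SLIT2, EPHA3, EPHA8, NTN4, PLXND1, SEMA6C, SEMA3C, SEMA3E and ROBO4. ROBO4 and PLXND1 are receptors best known from endothelium, and ROBO4 was listed at 0 in 4 of the 5 control pools. In the order of control means, the ranges of the 5 pools overlapped for every pair of neighbours except SEMA3E and ROBO4, so the order within a level is not resolved.

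**Figure D1:**
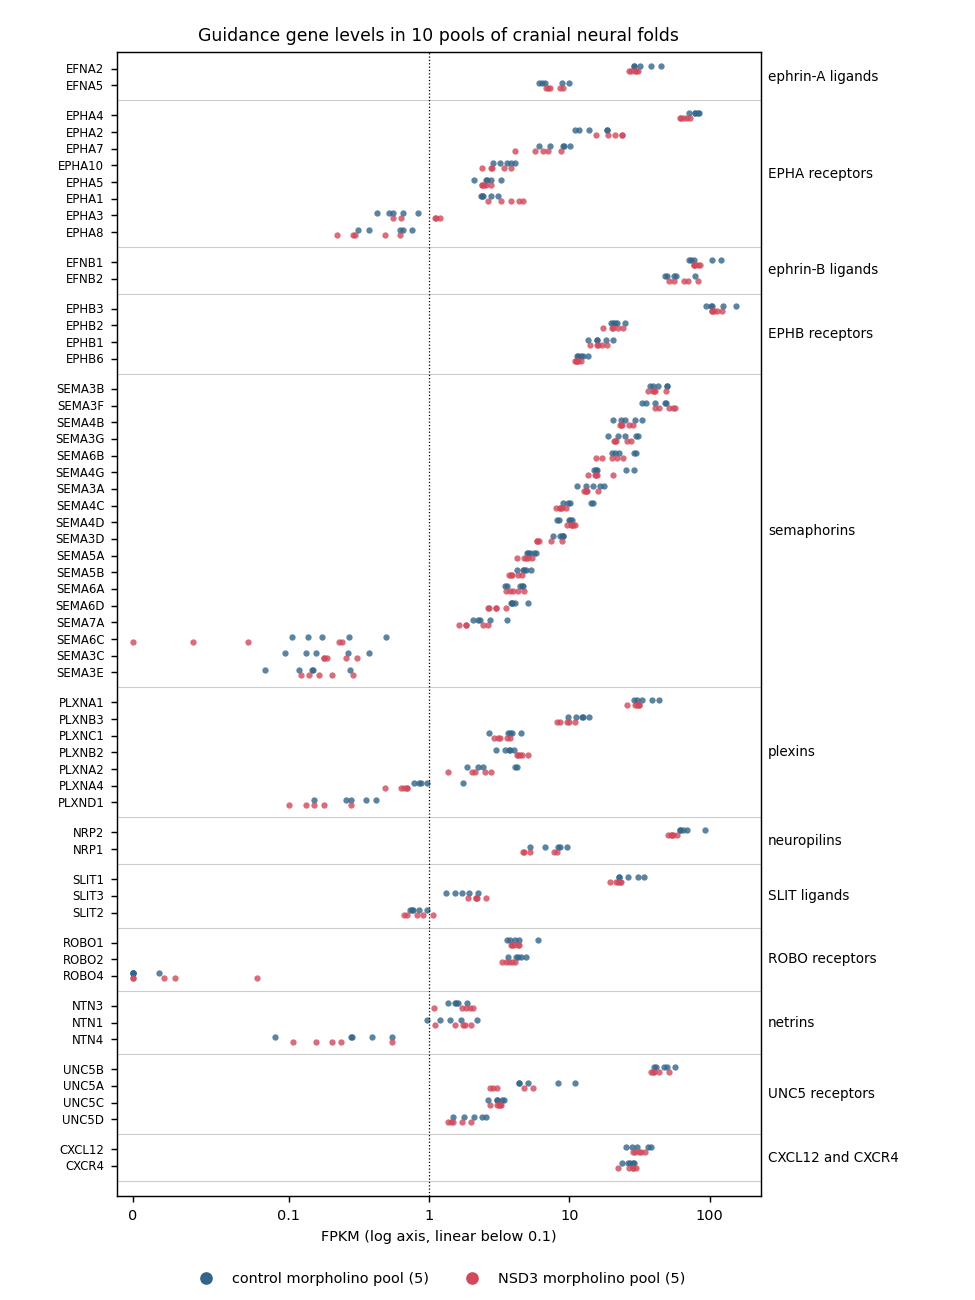
FPKM of the 58 guidance genes in each pool (blue, 5 control morpholino pools; red, 5 NSD3 morpholino pools), by family and by control mean, on a log axis that is linear below 0.1. EPHB3, EFNB1, EPHA4, NRP2 and EFNB2 sit highest, and 10 genes lie below the dotted line at 1 FPKM on average. Red and blue points overlap for all but 4 genes, of which PLXNA4 lies below that line on average. Of all genes tested, 3.68% were higher without overlap and 2.36% lower without overlap.

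Within most families a single matched member carried most of the summed FPKM. Of the 19168 genes, 4914 had no symbol and could not match, so the shares are of matched members only. Where only 2 members matched, the leading one holds the larger share by definition. SLIT1 made up 91.3 ± 0.71% (SD, n = 5) of the summed FPKM of the 3 Slit genes in control pools. NRP2 held 89.8 ± 2.90% of the neuropilin sum, EFNA2 81.8 ± 3.57% of the 2 ephrin-A genes, UNC5B 80.2 ± 3.38% of the 4 UNC5 genes, EPHA4 70.5 ± 1.07% of the 8 EPHA genes and EPHB3 69.2 ± 3.08% of the 4 EPHB genes. The 18 semaphorins were spread more evenly, with SEMA3B at 17.8 ± 1.17% of their sum. Matched members of ligand and receptor families could differ widely in level. The 3 netrin genes summed to 3.40 ± 0.779 FPKM while their UNC5 receptors summed to 58.8 ± 9.43 FPKM. The 3 ROBO genes summed to 8.69 ± 1.34 FPKM against 29.7 ± 5.37 FPKM for the Slits. Of the semaphorins, the secreted class 3 genes summed to 134 ± 14.5 FPKM, led by SEMA3B and SEMA3F, and the membrane-bound class 4 genes to 67.3 ± 12.9 FPKM, led by SEMA4B.

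Control pools 4 and 5 stood apart from control pools 1 to 3 for many of these genes, and for many of all genes tested. This bears on every comparison that follows. Of the 48 tested members, 26 (54.2%) had their 2 highest control values in pools 4 and 5, against 26.5% of all 11935 genes tested, and 6 (12.5%) had their 2 lowest values there, against 27.7%. For such members, leaving these 2 pools out moves the estimate in a direction fixed in advance. Fits without them therefore only describe how far each estimate depends on them. No other pair of pools was left out, and the labels do not set these 2 apart. Control pool 5 gave the highest value of all 10 pools for 21 members (43.8%), against 20.3% of all genes tested. The median member lay 0.24 above its own mean in control pool 5 and 0.11 above it in control pool 4 on the log2(FPKM + 0.5) scale, while the other 8 pools lay between -0.10 and 0.01. Control pool 5 also had the highest summed neural crest markers (1366 FPKM, next highest control 920 FPKM) and, with 1036 FPKM, the highest neural tube sum, where control pool 4 stood at 866 FPKM. Such sums are weighted to their highest genes. In controls FOXD3 averaged 407 FPKM of a crest sum of 935 FPKM, and its highest pool reached 731 FPKM. OTX2 and SOX21 averaged 235 and 228 FPKM of a neural tube sum of 813 FPKM, and SOX21 reached 367 FPKM in its highest pool. In pooled tissue, fewer cells of a type and less RNA per cell cannot be told apart, and the part of these markers in the guidance gene values was not tested.

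**Figure D2:**
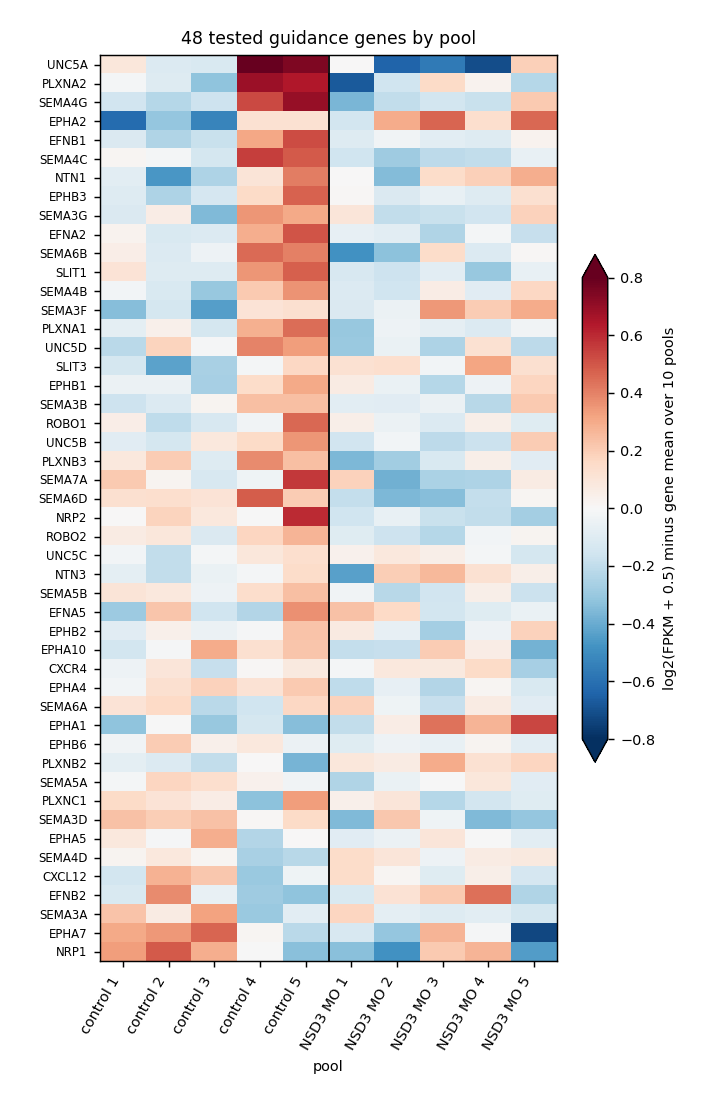
Deviation of log2(FPKM + 0.5) from each gene's mean over 10 pools for the 48 tested guidance genes (rows), with 5 control pools left and 5 NSD3 morpholino pools right of the line; rows run from genes highest to genes lowest in control pools 4 and 5 relative to pools 1 to 3, and colours saturate at 0.8. The upper rows, led by UNC5A, are red in control pools 4 and 5, while at the bottom EFNB2 and SEMA3A are blue there and EPHA7 and NRP1 are near white in pool 4 and blue in pool 5.

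The main question was whether the guidance genes differed between the NSD3 morpholino and control pools. By limma over all 11935 genes tested, 0 of the 48 tested members were called higher and 0 lower at an adjusted p under 0.05, where 1.5% of all genes tested were called higher and 1.02% lower (179 and 122 genes, or 125 and 173 with FPKM rescaled to the same total). At an unadjusted p under 0.05, 9 members (18.8%) were lower against 8.29% of all genes, and 3 (6.25%) were higher against 9.78%. The log2 fold change was below 0 for 36 of 48 members (75%) against 50.6% of all genes, with a median of -0.11 against -0.003 over all genes tested. Without control pools 4 and 5 it was below 0 for 27 of 48 members, and the median was -0.04. Summed head mesenchyme markers were higher in every NSD3 morpholino pool than in any control, as given above. Neural crest and neural tube sums were lower on average but overlapped between groups. For neural tube, control pools 1 to 3 (733, 730 and 702 FPKM) lay within the range of the NSD3 morpholino pools. The part of these markers in the guidance gene values was not tested. The authors' deposited table of 674 called genes, 3.52% of those in the FPKM table, lists 5 of the 58 members (8.62%): SEMA6D, NRP2 and PLXNA4 as lower and EPHA1 and PLXNB2 as higher. These shares are not matched for level, since 11935 of all 19168 genes passed the filter of 1 FPKM, against 48 of the 58 members. Groups did not overlap for PLXNB2, which was higher (1 of 48, 2.08%, against 3.68% of genes tested), and for SEMA6D and NRP2, which were lower (2 of 48, 4.17%, against 2.36%). Half-widths of the 95% intervals of the members' log2 fold changes ran from 0.145 to 0.577, with a median of 0.259.

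**Figure D3:**
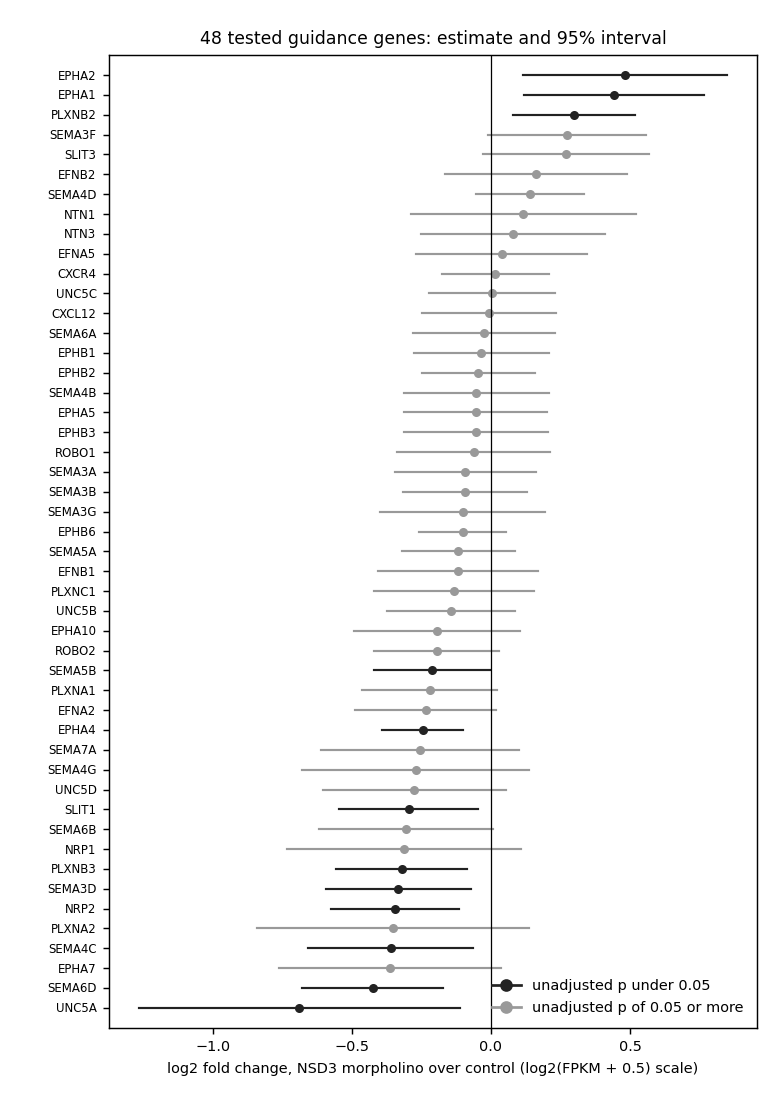
Log2 fold change of each of the 48 tested guidance genes (NSD3 morpholino over control, 5 pools each, log2(FPKM + 0.5) scale) with its 95% interval; black marks genes with an unadjusted p under 0.05. Estimates run from -0.69 (UNC5A) to 0.48 (EPHA2), and most points lie left of 0.

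Among Eph receptors, EPHA4 was lower on average, while EPHA2 and EPHA1 were higher. EPHA4 read 70.7, 78.7, 81.9, 77.99 and 83.3 FPKM in control pools 1 to 5 and 62.4, 68.6, 61.1, 72.7 and 66.0 FPKM in NSD3 morpholino pools 1 to 5. Control pool 1 alone kept the groups from separating, since it lay below NSD3 morpholino pool 4. By limma the estimate was -0.25 log2 (SE 0.0664), limma's adjusted p being 0.0773. With FPKM rescaled to the same total in each library it was -0.29 with an adjusted p of 0.0299, which passed the threshold. EPHA4 made up 63.8 ± 3.77% of the EPHA sum in NSD3 morpholino pools, against the 70.5% of controls. Such a share also depends on the levels of the other EPHA genes.

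EPHA2, an ephrin-A receptor of epithelia, read 10.99, 13.7, 11.7, 18.6 and 18.6 FPKM in control pools 1 to 5 and 15.4, 21.1, 23.7, 18.8 and 23.6 FPKM in the NSD3 morpholino pools. The groups overlapped through control pools 4 and 5, which lay above NSD3 morpholino pool 1. The ratio of group means was 1.39, and the log2 fold change was 0.48 (SE 0.168, limma adjusted p 0.155). Without control pools 4 and 5 the log2 fold change was 0.72 (SE 0.140), limma's adjusted p being 0.0251, and the gene was called. Those pools held its 2 highest control values, so leaving them out raises the estimate by construction, and the call adds no support.

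EPHA1, another receptor of epithelia, read 2.38, 3.08, 2.41, 2.76 and 2.34 FPKM in controls and 2.63, 3.24, 4.36, 3.85 and 4.69 FPKM with the NSD3 morpholino. The 3 highest values came from NSD3 morpholino pools 3 to 5, while pools 1 and 2 lay close to or within the control range. Its log2 fold change was 0.44 (SE 0.148, limma adjusted p 0.142), and the authors' deposited table gives 0.53 with an adjusted p of 0.0382 at a mean count of 142. Markers of non-neural ectoderm, an epithelium, summed to 255 to 326 FPKM in controls and 301 to 347 FPKM with the NSD3 morpholino. Of the 6 tested markers 0 were called, with estimates below 0 for CDH1 and GATA2 and above 0 for the others. EPCAM alone averaged 219 of a mean sum of 289 FPKM in controls, and 251 of 322 FPKM with the NSD3 morpholino. The part of these markers in the EPHA1 and EPHA2 values was not tested.

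EPHA7 read 8.95, 9.24, 10.1, 7.24 and 6.10 FPKM in controls and 6.51, 5.69, 8.76, 7.10 and 4.12 FPKM with the NSD3 morpholino. Both groups spread over similar ranges, with control pools 4 and 5 the lowest controls, opposite to most members. The estimate was -0.36 (SE 0.183, adjusted p 0.322 by limma), -0.55 (adjusted p 0.134) without those 2 control pools and -0.23 (adjusted p 0.522) without NSD3 morpholino pool 5. None of the EPHB receptors had an unadjusted p under 0.05. EPHB3 read 104, 94.3, 102, 124 and 155 FPKM in controls and 112, 103, 107, 104 and 122 FPKM with the NSD3 morpholino. The control range enclosed that of the NSD3 morpholino pools, and the 95% interval of the log2 fold change ran from -0.31 to 0.20. EPHB1, EPHB2 and EPHB6, the last a receptor without kinase activity, had estimates of -0.03, -0.05 and -0.10. EPHA10 and EPHA5 stood at -0.19 and -0.05.

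The ephrins themselves were not called either. EFNB1 read 77.2, 70.7, 74.0, 104 and 120 FPKM in control pools and 77.7, 81.9, 78.8, 77.8 and 85.4 FPKM in the NSD3 morpholino pools. The NSD3 morpholino pools lay above control pools 1 to 3 and below pools 4 and 5, so the log2 fold change was -0.12 (SE 0.132) with all pools and 0.12 without those 2 controls. Without 1 control pool it was -0.19 (pool 2), -0.056 (pool 4) or -0.0029 (pool 5). EFNA2 read 31.9, 28.7, 28.99, 38.3 and 44.6 FPKM in controls and 29.9, 29.5, 26.5, 30.9 and 27.5 FPKM with the NSD3 morpholino. Control pools 4 and 5 were highest, and the estimate of -0.23 (adjusted p 0.314 by limma) was -0.14 without pool 5 and -0.048 without both. EFNB2, the other ephrin-B ligand, read 55.2, 78.6, 57.8, 49.3 and 48.1 FPKM in controls and 55.3, 65.3, 69.8, 81.9 and 50.9 FPKM with the NSD3 morpholino. The groups spanned similar ranges. Its log2 fold change was 0.16 (95% interval -0.16 to 0.49), 0.28 without control pool 2, 0.10 without control pool 5, 0.073 without NSD3 morpholino pool 4 and 0.015 without control pools 4 and 5. EFNA5 had an estimate of 0.04.

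Estimates were below 0 for 13 of the 15 tested semaphorins, 4 of them (SEMA6D, SEMA4C, SEMA3D and SEMA5B) at an unadjusted p under 0.05. Of all genes tested, 50.6% were below 0 and 8.29% were lower at that limma p. Without control pools 4 and 5, SEMA3B (0.036), SEMA3G (0.086), SEMA4B (0.12) and SEMA4G (0.048) turned positive, while the rest of the 13 stayed below 0. SEMA6D, a transmembrane ligand that binds plexin-A1 in chick, read 3.88, 3.89, 3.83, 5.11 and 4.11 FPKM in controls and 3.01, 2.62, 2.66, 3.00 and 3.55 FPKM with the NSD3 morpholino. Every NSD3 morpholino pool lay below every control pool. Its estimate was -0.43 log2 (SE 0.116), limma's adjusted p being 0.0785, while the authors' deposited table gives -0.49 with an adjusted p of 0.00815 at a mean count of 176. Control pools 4 and 5 held the 2 highest control values of SEMA6D, and without them the estimate was -0.34 (limma adjusted p 0.158).

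SEMA4C, a membrane-bound ligand that binds plexin-B2 in mouse, read 10.1, 9.83, 8.98, 14.8 and 14.2 FPKM in controls and 8.86, 8.08, 8.56, 8.64 and 9.54 FPKM with the NSD3 morpholino. Control pools 4 and 5 held its 2 highest control values, so leaving them out must move a negative estimate up. The log2 fold change was -0.36 (limma adjusted p 0.189) with them and -0.13 (0.425) without. SEMA3D, a secreted ligand, read 9.03, 8.82, 9.06, 7.68 and 8.51 FPKM in controls and 5.86, 8.92, 7.43, 5.86 and 6.05 FPKM with the NSD3 morpholino. Controls were close together there, and NSD3 morpholino pool 2 alone reached their upper values. The SEMA3D estimate was -0.33 (SE 0.119, limma adjusted p 0.168) and -0.39 (0.148) without control pools 4 and 5. SEMA5B, a ligand with thrombospondin repeats, read 4.76, 4.69, 4.26, 4.91 and 5.30 FPKM in controls and 4.31, 3.70, 3.91, 4.56 and 3.85 FPKM with the NSD3 morpholino. Its groups overlapped through control pool 3, and the estimate was -0.21 (SE 0.0958, limma adjusted p 0.273). Without control pools 4 and 5, the 2 highest controls of SEMA5B, it was -0.15 (0.470).

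The secreted ligand SEMA3F, which binds NRP2, was one of the 2 semaphorins with a positive estimate. It read 35.0, 40.5, 32.7, 48.2 and 48.9 FPKM in controls and 41.1, 43.2, 56.8, 51.5 and 54.8 FPKM with the NSD3 morpholino. NSD3 morpholino pools 3 to 5 lay above every control. Its estimate was 0.27 log2 (SE 0.130, limma adjusted p 0.297), and 0.44 (0.0682) without control pools 4 and 5. SEMA3B, the semaphorin with the highest level, read 37.6, 39.1, 42.8, 49.9 and 49.9 FPKM in controls and 39.8, 39.5, 40.8, 36.1 and 48.8 FPKM with the NSD3 morpholino. Its 95% interval ran from -0.32 to 0.13, and the groups overlapped. SEMA4D, the other positive member, stood at 0.14, SEMA6B at -0.30 and SEMA4G at -0.27 (0.048 without control pools 4 and 5), and the remaining tested semaphorins (SEMA3A, SEMA3G, SEMA4B, SEMA5A, SEMA6A and SEMA7A) lay between -0.25 and -0.03.

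Among semaphorin receptors, NRP2 was lower on average with the NSD3 morpholino. It read 61.0, 69.2, 64.6, 60.9 and 92.6 FPKM in controls and 54.7, 58.5, 53.9, 53.2 and 50.4 FPKM with the NSD3 morpholino. The highest NSD3 morpholino pool, at 58.5 FPKM, stayed under the lowest control, at 60.9 FPKM, and control pool 5 stood far above the rest. The log2 fold change was -0.34 (SE 0.106), limma's adjusted p being 0.112, and without control pools 4 and 5 it was -0.26 (SE 0.0655) with an adjusted p of 0.0603. For NRP2, with a mean count of 3097, the authors' deposited table has -0.36 and an adjusted p of 0.0373. Summed neural crest markers averaged 935 ± 249 FPKM in controls and 626 ± 109 FPKM (SD, n = 5 each) with the NSD3 morpholino. Of the 7 markers, 2 were called lower: SOX9 (54.1 and 28.1 FPKM) and TFAP2B (61.2 and 38.3 FPKM). The markers with the highest means, FOXD3 (407 and 238 FPKM) and SNAI2 (268 and 209 FPKM), were not called (limma adjusted p 0.133 and 0.322). The part of these markers in the NRP2 values was not tested.

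The related co-receptor NRP1 read 8.56, 9.62, 8.29, 6.66 and 5.21 FPKM in controls and 5.21, 4.65, 7.81, 8.20 and 4.78 FPKM with the NSD3 morpholino. Groups overlapped broadly, with NSD3 morpholino pools 3 and 4 within the range of control pools 1 to 4. Its log2 fold change was -0.31 (SE 0.193, limma adjusted p 0.435). NRP1 is also known from endothelium, and markers of endothelium and blood summed to 14.1 to 21.1 FPKM in controls and 13.7 to 21.5 FPKM with the NSD3 morpholino. Of the 4 tested markers 0 were called, with log2 fold changes of 0.40 (KDR), 0.44 (LMO2), -0.22 (PECAM1) and -0.36 (SOX18). The part of these markers in the NRP1 values was not tested.

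Plexins went in both directions. PLXNB2, a receptor of class 4 semaphorins, read 3.79, 3.71, 3.46, 4.05 and 3.01 FPKM in controls and 4.33, 4.26, 5.07, 4.44 and 4.61 FPKM with the NSD3 morpholino. It was the single tested member whose NSD3 morpholino pools all lay above the controls. The log2 fold change was 0.30 (SE 0.101, limma adjusted p 0.143), and the authors' deposited table gives 0.33 with an adjusted p of 0.0382 at a mean count of 270. PLXNB3, which binds SEMA5A in mammals, read 11.2, 12.3, 9.80, 13.9 and 12.6 FPKM in controls and 8.15, 8.62, 9.69, 10.9 and 9.91 FPKM with the NSD3 morpholino. Its groups overlapped through control pool 3, at 9.80 FPKM, and the estimate was -0.32 (SE 0.108, limma adjusted p 0.143). Without control pools 4 and 5, the 2 highest controls of PLXNB3, it was -0.22 (0.303).

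Plexin-A receptors pair with neuropilins to transmit class 3 semaphorin signals. PLXNA1, the plexin with the highest level, read 30.3, 32.97, 28.96, 39.1 and 43.8 FPKM in controls and 25.9, 31.2, 30.4, 29.6 and 31.4 FPKM with the NSD3 morpholino. Its estimate of -0.22 was -0.14 without control pool 5 and -0.05 without control pools 4 and 5. For PLXNA2 the estimate was -0.35 with all pools and -0.03 without control pools 4 and 5. Those pools were the highest controls of both genes. PLXNA4 read 0.853, 0.877, 0.787, 0.971 and 1.75 FPKM in controls and 0.702, 0.699, 0.486, 0.667 and 0.635 FPKM with the NSD3 morpholino. The groups did not overlap, but its mean lay under the filter of 1 FPKM and the value of control pool 5 was the highest by far. Fitted without a filter on low values, its log2 fold change was -0.42 (SE 0.158), limma's adjusted p being 0.258, and the authors' deposited table gives -0.71 with an adjusted p of 0.0441 at a mean count of 72.1. PLXNC1, the receptor of SEMA7A, had an estimate of -0.13.

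**Figure D4:**
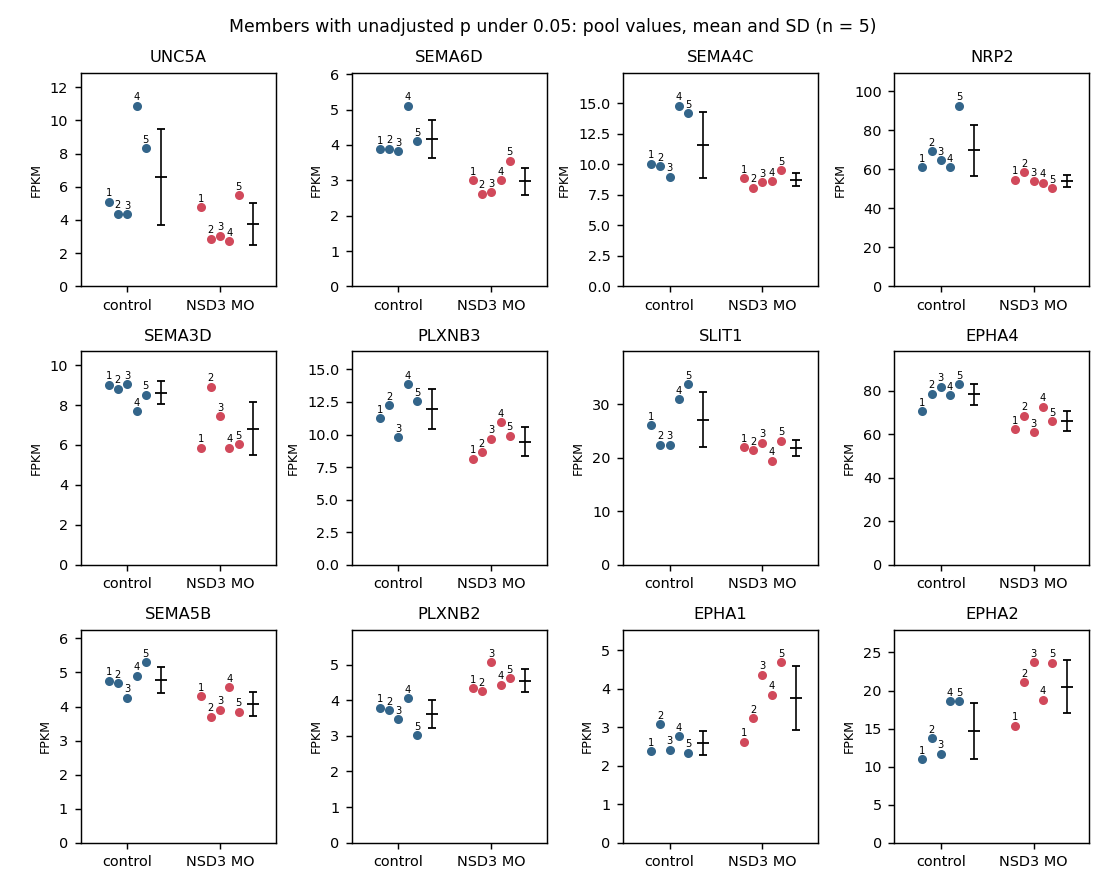
FPKM per pool of the 12 members with an unadjusted p under 0.05 (points numbered by replicate; bars, mean and SD of 5 pools), from the most negative to the most positive log2 fold change, each axis from 0. SEMA6D, NRP2 and PLXNB2 separate the groups. Control pools 4 and 5 hold the 2 highest control values for UNC5A, SEMA4C, SLIT1, PLXNB3, SEMA5B and EPHA2, and also for SEMA6D.

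Slit and netrin systems gave no call. SLIT1 read 26.1, 22.5, 22.5, 31.0 and 33.9 FPKM in controls and 22.0, 21.4, 22.8, 19.5 and 23.2 FPKM with the NSD3 morpholino. Control pools 2 and 3 lay within the range of the NSD3 morpholino pools, and the log2 fold change moved from -0.30 (SE 0.115, limma adjusted p 0.202) to -0.12 (0.463) without control pools 4 and 5. SLIT3 stood at 0.27 (limma adjusted p 0.325) from 1.75 ± 0.356 and 2.19 ± 0.224 FPKM, and the receptors ROBO1 and ROBO2 at -0.06 and -0.19.

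UNC5A, a repulsive netrin receptor, had the largest estimate of the tested members. It read 5.09, 4.39, 4.35, 10.9 and 8.34 FPKM in controls and 4.77, 2.88, 3.06, 2.72 and 5.49 FPKM with the NSD3 morpholino. NSD3 morpholino pools 1 and 5 lay at or above the level of some of control pools 1 to 3, whereas control pools 4 and 5 lay far above all other pools. The log2 fold change of -0.69 (SE 0.265, limma adjusted p 0.198) became -0.30 (SE 0.210, 0.465) without those 2 controls. UNC5B, the UNC5 gene with the highest level, read 41.6, 40.3, 47.0, 49.3 and 56.9 FPKM in controls and 39.8, 43.7, 38.3, 39.3 and 51.1 FPKM with the NSD3 morpholino. Its groups overlapped, and the estimate of -0.14 (limma adjusted p 0.520) was -0.073 without control pool 5 and -0.023 without control pools 4 and 5. UNC5D stood at -0.28, UNC5C at 0.00, and the netrin genes NTN1 and NTN3 at 0.12 and 0.08.

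CXCR4 and its ligand CXCL12 had estimates near 0. CXCR4 read 26.2, 28.9, 23.7, 27.1 and 28.5 FPKM in controls and 26.7, 28.6, 28.5, 30.1 and 22.4 FPKM with the NSD3 morpholino. CXCL12 read 28.2, 38.1, 36.5, 25.4 and 30.5 FPKM in controls and 34.8, 31.6, 29.3, 32.3 and 28.5 FPKM with the NSD3 morpholino. Neither gene separated the groups. The 95% interval of the log2 fold change ran from -0.18 to 0.21 for CXCR4 and from -0.25 to 0.23 for CXCL12.

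**Figure D5:**
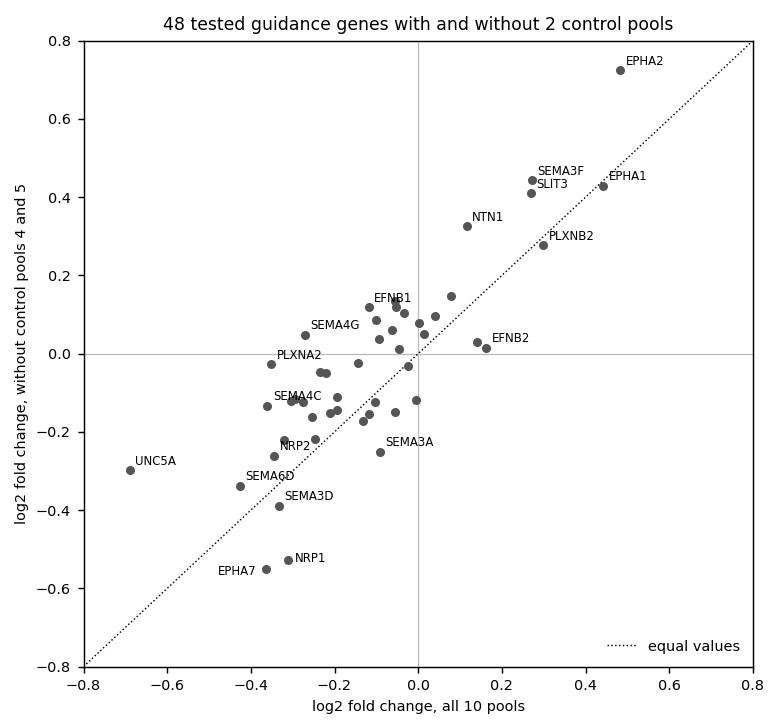
Log2 fold change of the 48 tested guidance genes with all 10 pools (horizontal axis) and without control pools 4 and 5 (vertical axis), with some genes named; the dotted line marks equal values. UNC5A, SEMA4C, PLXNA2, SEMA4G and EFNB1 move up toward or past 0, EPHA2 and SEMA3F move further from 0, and NRP1, SEMA3A and EPHA7 move down.

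A list of 74 co-receptors, further ligands and cytoplasmic effectors that act with these receptors was read in the same fit. Of the 68 found, 63 were tested, and by limma 0 were called higher and 0 lower. At an unadjusted p under 0.05, 7 were higher and 7 lower, 11.1% each way and near the 9.78% and 8.29% of all genes tested, and the median log2 fold change was -0.04. The groups did not overlap for 4 of them, 3 higher (4.76%, against 3.68%) and 1 lower (1.59%, against 2.36%), again near the background. SRGAP3, which acts downstream of Slit and ROBO, read 18.5, 16.7, 16.7, 21.7 and 24.9 FPKM in controls and 13.6, 13.2, 14.4, 15.6 and 13.2 FPKM with the NSD3 morpholino. Its log2 fold change was -0.47 (SE 0.112) and limma's adjusted p 0.0510, and the authors' deposited table gives -0.49 with an adjusted p of 0.00237. SRGAP3 passed the threshold with a filter at 5 FPKM (0.0446), with the same total FPKM (0.0363) and without control pool 3 (0.0355), and over all alternatives its adjusted p ran from 0.0355 to 0.133. Without control pools 4 and 5 its estimate was -0.30 (0.0771).

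The other 3 lay higher in every NSD3 morpholino pool. RAC1, a GTPase on which plexin and Eph signals converge, ranged from 108 to 116 FPKM in controls and from 122 to 131 FPKM with the NSD3 morpholino (log2 fold change 0.19, limma adjusted p 0.0588). CFL2, an actin-severing cofilin, ranged from 109 to 146 and from 152 to 177 FPKM (0.33, 0.0677), and LIMK2, the kinase that inhibits cofilins, from 14.4 to 16.1 and from 17.0 to 19.0 FPKM (0.24, 0.0718). The adjusted p of CFL2 ran from 0.0378 (without control pool 3) to 0.156 over the alternatives, and without control pools 4 and 5 its estimate was 0.22 (0.128). CFL2 is also listed as higher in the authors' deposited table, with an adjusted p of 0.0215, and the table lists DPYSL5 and SDC3 as lower.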

How the data were processed

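Poly(A) RNA of 10 pools was sequenced. The authors deposited FPKM per gene and library, and a table of 674 called genes. It gives the mean count over libraries, deposited as a signal that is not whole, besides the authors' log2 fold changes and adjusted p-values. The submitters' processing notes name build GRCg6a and the tools STAR 2.5.3a, DESeq2 1.28.1 and Trimmomatic 0.32, without roles. Which counter and annotation made the values is not given in the sources used here. Of that table, 10 further columns were not used.

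Since FPKM hold no counts, log2(FPKM + 0.5) was tested, which understates changes of low genes. Genes with a mean of at least 1 FPKM over the 10 libraries were kept (11935). A model with 1 group term was fitted with limma 3.58.1 with trend in R 4.3.3, two-sided, and p-values were adjusted by Benjamini-Hochberg over all genes kept, with calls at an adjusted p under 0.05. Tables and figures used Python 3.11.15. On simulated data of the same size, 49.8% of changes of 0.5 and 88% of changes of 1 (log2) were recovered. The simulated noise was independent between genes, so it held no shifts shared by many genes of a pool. These rates are over all genes kept, not the guidance genes. Groups and replicate numbers came from the sample titles, and 20 alternatives were tried.

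Read totals are unknown; depth is relative. Libraries are separate pools, and no pair within a group had identical values in more than 0.142% of genes. The members and lists were chosen with earlier results of these data known. Full values are given for members with an unadjusted p under 0.05, groups without overlap, an entry in the authors' table, 1 of the 12 highest means or 1 of the 6 largest log2 fold changes. NRP1 was added beside NRP2 after its values were seen, and other members get estimates. The library kit was stranded per the labels' protocols, but the sources do not say if counting was; genes that overlap are uncertain. No sequences are shown.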

Additional observations from a re-analysis of the deposited data

Results flagged for a closer look

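A library far from the 4 others of its group was found in 4 of the 58 groups of 5 values examined. These groups are not the 58 members, since LIMK2 of the partner list is among them. Chance gives about 1 in 20 for genes picked without regard to their values. All 4 genes met the naming rule of groups without overlap, which uses these same values, so that rate cannot be set against the count. NRP2, PLXNA4 and SEMA6D met other naming rules as well, among them an entry in the authors' table. NRP2 stood at 92.6 FPKM in control pool 5, against 69.2 FPKM in the next highest control. PLXNA4 stood at 1.75 FPKM in control pool 5, against 0.971 FPKM in the next. SEMA6D stood at 5.11 FPKM in control pool 4, against 4.11 FPKM in the next. LIMK2, of the partner list, stood at 16.1 FPKM in control pool 4, against 14.8 FPKM in the next. All 4 lie in control pools 4 or 5 and above the rest, and their cause was not tested. Without control pool 5 the log2 fold change of NRP2 was -0.24 (limma adjusted p 0.0814), against -0.34 with it.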

How the results depend on the processing

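Calls among guidance genes were 0 in each direction under 18 of the 20 alternatives. Without control pools 4 and 5 together 1 member was called higher (EPHA2), whose 2 highest control values were those left out. With FPKM rescaled to the same total 1 was called lower (EPHA4, -0.29, against -0.25 in the main fit). With median ratio scaling EPHA4 stood at -0.25 with a limma adjusted p of 0.0730. Why total FPKM differed between libraries was not tested. The same-total scaling also moved the median of all genes from -0.003 to -0.05 and that of the partner list from -0.037 to -0.080. Over all genes, leaving out 1 library gave 70 to 210 genes higher and 33 to 151 lower, the lowest counts without NSD3 morpholino replicate 2. With the replicate number as a block 97 were higher and 62 lower, with 0 guidance genes called. Same-numbered libraries correlated in their deviations at 0.214, -0.0353, -0.128, -0.0647 and 0.34, so the numbers were not taken as pairs; the libraries numbered 1 were each other's best match, as were those numbered 5, and the other 3 numbers were not. Some signs turned. Without control pools 4 and 5 the log2 fold change was 0.13 for EPHB3, 0.12 for EFNB1 and 0.036 for SEMA3B, 0.048 for SEMA4G (-0.27 with all pools), and with the same total it was -0.030 for CXCR4. Leaving out 1 library gave -0.082 to 0.063 for CXCL12, -0.029 to 0.083 for CXCR4 and -0.12 to 0.056 for EPHB3. Read totals are unknown, and 10 members under 1 FPKM were not tested. NSD3 passed the threshold with a filter at 5 FPKM (adjusted p 0.0480, limma) and with the same total (0.0360).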
